A study of Homo sapiens with 9 samples.

Results

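The GADD45, BTG/TOB and stress-responsive polo-like kinase genes are 10 genes with growth-restraining or stress-linked products, taken as a list of symbols: GADD45A, GADD45B, GADD45G, BTG1, BTG2, BTG3, TOB1, TOB2, PLK2 and PLK3. They were followed in NCI-H460 cells, a large cell lung cancer line whose label gives RUNX3 as inactivated. The study describes these cells as having activated K-RAS and wild-type ARF and p53. The 3 lines were H460-vec, the control (labelled H460), H460-ERT2-RUNX3, which carries RUNX3 fused to the ERT2 hormone-binding domain that 4-hydroxytamoxifen (4-OHT) brings into the nucleus, and H460-ERT2-RUNX3-K94/171R, in which lysines 94 and 171 of the fusion are arginines. All lines were starved of serum for 24 h, and RNA was taken at 0, 8 and 16 h of stimulation. The protocol names 10% serum either alone or with 1 μM 4-OHT. The labels of all 8 h and 16 h libraries, those of the control line included, give tamoxifen as the treatment. This is taken here to be serum with 4-OHT. The titles of the 0 h libraries name tamoxifen too. The study describes 0 h as before serum stimulation, so 0 h is taken here as before 4-OHT. The transfected lines were stable, and the sources used here do not say whether each was 1 clone. There was 1 RNA-seq library per line and time, 9 in all, so no difference given here has a replicate check and none was tested.

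Values are FPKM, a read count scaled by transcript length and library size, in one table for H460-vec and H460-ERT2-RUNX3 and another for K94/171R. The K94/171R table held all 10 genes among 19869. In the other table, of 24331 loci, symbols could be assigned to 1144, all on chromosome 1, and these included GADD45A, BTG2 and PLK3. The other 7 genes were not analysed there. All 10 genes had FPKM of at least 1 in at least 1 library of each comparison, the minimum used throughout. Changes are log2((FPKM + 0.05)/(FPKM + 0.05)), and a change of 2 in either direction, the fold-change threshold used by the study, is called past the threshold. The study also set limits on FDR and p-value, which are not applied here. Because each table was normalised on its own, levels are set against each other only inside one table.

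The 3 GADD45 proteins are small stress sensors that bind and activate the kinase MAP3K4 upstream of p38 and JNK, and they also bind PCNA, p21 and the CDK1-cyclin B1 complex. BTG1, BTG2, BTG3, TOB1 and TOB2 belong to the BTG/TOB family of antiproliferative proteins, which bind deadenylases of the CCR4-NOT complex and so speed the loss of poly(A) tails. PLK2 and PLK3 are polo-like kinases that respond to serum and stress, unlike PLK1, the main mitotic kinase of the family.

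RefSeq promoter windows (GRCh38.p14) were found for 9 of the 10 genes, all except GADD45A, and TOB1 had a pair of them. In the 250 bases before each start, matches were sought on both strands to RUNX cores (TGTGGT or TGCGGT), the core of the cAMP response element, CRE (TGACG), the AP-1 site (TGAGTCA), the CCAAT box (CCAAT), the GC box (GGGCGG) and the TATA box (TATAAA). The windows of BTG2 and PLK3 are shown because these genes had their highest FPKM in H460-ERT2-RUNX3 at 16 h within their table. Those of GADD45B and BTG1 are shown because they had the largest decreases among the 10 genes in K94/171R at 8 h. They were chosen after the values had been seen. Each is read 5′ to 3′ along its gene, capitals mark the matches, and no match overlaps another in these windows.
BTG2, chr1:203305269-203305518, plus strand: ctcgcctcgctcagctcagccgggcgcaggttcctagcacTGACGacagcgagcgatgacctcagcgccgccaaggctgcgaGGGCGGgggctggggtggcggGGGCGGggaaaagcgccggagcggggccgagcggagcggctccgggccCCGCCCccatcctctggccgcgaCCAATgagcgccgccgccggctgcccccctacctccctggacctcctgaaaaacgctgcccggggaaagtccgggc
PLK3, chr1:44800127-44800376, plus strand: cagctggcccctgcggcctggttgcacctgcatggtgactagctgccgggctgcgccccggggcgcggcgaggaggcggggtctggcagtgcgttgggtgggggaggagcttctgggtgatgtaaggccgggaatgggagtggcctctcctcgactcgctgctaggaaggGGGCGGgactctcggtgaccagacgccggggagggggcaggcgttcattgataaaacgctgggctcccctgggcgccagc
GADD45B, chr19:2475877-2476126, plus strand: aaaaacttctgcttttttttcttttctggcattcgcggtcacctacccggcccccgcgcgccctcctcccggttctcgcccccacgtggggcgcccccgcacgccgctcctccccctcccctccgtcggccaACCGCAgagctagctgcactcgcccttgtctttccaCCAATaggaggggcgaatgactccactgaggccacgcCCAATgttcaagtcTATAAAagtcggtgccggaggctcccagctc
BTG1, chr12:92145847-92146096, minus strand: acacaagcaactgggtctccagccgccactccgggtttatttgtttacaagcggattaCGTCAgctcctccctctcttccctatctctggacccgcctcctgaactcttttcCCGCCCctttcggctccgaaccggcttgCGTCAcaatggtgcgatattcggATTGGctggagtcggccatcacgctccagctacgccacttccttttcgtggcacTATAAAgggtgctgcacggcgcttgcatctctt

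A RUNX core was present in 1 of the 9 genes, GADD45B, as TGCGGT on the opposite strand 118 bases before the start, against 16.3% of all 34943 promoters. TGTGGT was in 0 of the 9 and in 11% of all promoters, and the AP-1 site was in 0 of the 9 and in 4.22%. The TATA box was found 31 bases before the start of GADD45B and 33 before that of BTG1, and 10.8% of all promoters hold it. BTG1 also had a pair of CRE cores, 192 and 110 bases before the start, and BTG2 had 1 at 210 bases, while 4 of the 9 genes (BTG1, BTG2, TOB1 and PLK2) and 21.2% of all promoters had any. The CCAAT box was in 5 of the 9 (GADD45B, GADD45G, BTG1, BTG2 and TOB1) against 32%, and the GC box in 7 of the 9, all but GADD45B and GADD45G, against 42.5%. The windows of these 7 genes were rich in G and C, at 68.4% to 80.4% except BTG1 at 56.4%, where the median of all promoters was 58%, and TOB1's other window, without a match, was at 38.4%. PLK3 had 1 GC box, 80 bases before the start, and no other match. A gene was counted if any of its windows matched, whereas the background counts windows, so the units differ for TOB1. These are matches of letters and say nothing about binding.

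The libraries were checked before the genes were compared. RUNX3 itself had FPKM of 2.12, 0.712 and 2.11 in the 0, 8 and 16 h libraries of K94/171R, where transcripts of the cell's own gene and of the transgene cannot be told apart, and it was not analysed in the other lines. The epithelial keratins KRT8, KRT18 and KRT19 were at 309 to 698 in K94/171R, whereas EPCAM was at 0 to 0.313 and CDH1 at 0 to 0.0227, so these other epithelial markers were absent or nearly so. The T cell marker CD3E and the endothelial marker CDH5 were listed at 0 in all K94/171R libraries. Among markers of other cell types, CD14, of monocytes, was at 5.44, 3.16 and 5.62 in the 0, 8 and 16 h libraries and COL3A1, of fibroblasts, at 6.17, 5.60 and 8.26, both lowest at 8 h, and their part in the values below was not tested. The leukocyte marker PTPRC, the fibroblast markers COL1A1 and DCN and the endothelial marker VWF were at 0 to 0.590 in K94/171R, and PTPRC was at 0 to 0.0761 in the other lines. The H460-ERT2-RUNX3 library at 16 h stood apart. Its r with the other 5 libraries of its table across genes was 0.761 to 0.861, against 0.914 to 0.959 among those 5, and its FPKM summed to 780952 against 554359 to 641519. Every value at 16 h in H460-ERT2-RUNX3 rests on it, and those at 8 h do not. In bulk RNA, a change in the number of cells of a kind and a change in RNA per cell cannot be told apart.

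In H460-ERT2-RUNX3, GADD45A, BTG2 and PLK3 followed different courses. GADD45A was already high at 8 h, PLK3 was most of the way to its final level at 8 h, and BTG2 was within 0.15 of log2 of its 0 h level at 8 h and high at 16 h. In H460-vec, labelled with the same treatment, only PLK3 of the 3 genes was higher by more than 0.5 of log2 at either time.

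**Figure D1:**
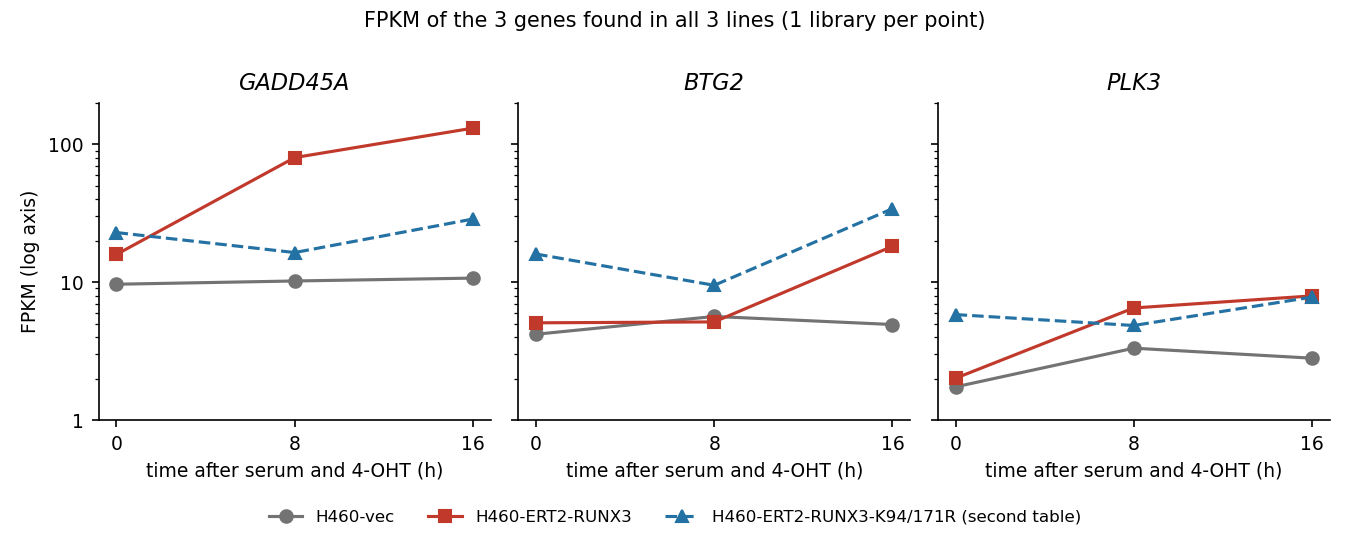
FPKM (log axis) of GADD45A, BTG2 and PLK3 against time after serum and 4-OHT (h), 1 point per library and no error bars since there are no replicates. Grey, H460-vec; red, H460-ERT2-RUNX3; dashed blue, K94/171R, whose levels come from a separate table and are not to be compared in height with the others. BTG2 in H460-ERT2-RUNX3 is at 5.07 and 5.15 at 0 and 8 h and at 18.2 at 16 h, and in K94/171R all 3 genes are lowest at 8 h.

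GADD45A (chr1:68150884-68154017, plus strand, GRCh37) had FPKM of 15.9, 80.1 and 131 at 0, 8 and 16 h in H460-ERT2-RUNX3 and of 9.66, 10.2 and 10.7 in H460-vec. The H460-ERT2-RUNX3 line was thus the higher one before 4-OHT as well, by 0.72 of log2. The changes against 0 h were 2.33 at 8 h and 3.04 at 16 h, and it was the only one of the 3 genes past the threshold at either time. The background was 1.08% of 11555 genes past the threshold upward at 8 h and 7.27% of 11930 at 16 h, so the smaller of these changes was the rarer in its comparison. As large a change was seen in 0.831% of genes at 8 h and in 3.59% at 16 h. Net of the change in H460-vec, the changes were 2.24 and 2.89, equalled by 0.937% and 3.55% of genes. GADD45A was also the only one of the 3 past the threshold both against 0 h and net of H460-vec, which 0.726% of genes were at 8 h and 5.75% at 16 h.

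BTG2 (chr1:203274619-203278730, plus strand), a stress-inducible member of the antiproliferative family, had FPKM of 5.07, 5.15 and 18.2 in H460-ERT2-RUNX3. The H460-vec values were 4.19, 5.64 and 4.93, close to those of H460-ERT2-RUNX3 up to 8 h. The change at 8 h was 0.02, or -0.15 after rescaling to equal FPKM sums, and 47.9% of genes had as large a value. From 8 to 16 h it was 1.82, short of the threshold and equalled by 5.16% of genes. The background past the threshold upward between these times was 4.3% of 11753 genes, and 0 of the 3 genes were. Net of H460-vec, BTG2 was at -0.40 at 8 h and at 1.60 at 16 h, so at 8 h the control line had the larger change.

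PLK3 (chr1:45266049-45271662, plus strand) had the lowest FPKM of the 3 genes, with 2.01, 6.50 and 7.95 in H460-ERT2-RUNX3 and 1.74, 3.32 and 2.81 in H460-vec. Its locus in that table also covers DYNLT4, which lies on the other strand, and whether counting used strand is not given in the sources used here, so reads of the pair cannot be told apart. In H460-ERT2-RUNX3 the changes against 0 h were 1.67 at 8 h and 1.96 at 16 h, both short of the threshold. Between 8 and 16 h the change was 0.29, or -0.03 after rescaling to equal FPKM sums. PLK3 also had the highest value of the 3 genes in H460-vec, 0.91 at 8 h and 0.67 at 16 h. Only 1.49% of genes reached that value at 8 h in H460-vec, nearly the same share as the 1.51% that reached 1.67 in H460-ERT2-RUNX3, where the spread over genes was wider. Net of H460-vec, PLK3 was at 0.75 at 8 h and 1.28 at 16 h, equalled by 7.4% and 14.6% of genes.

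**Figure D2:**
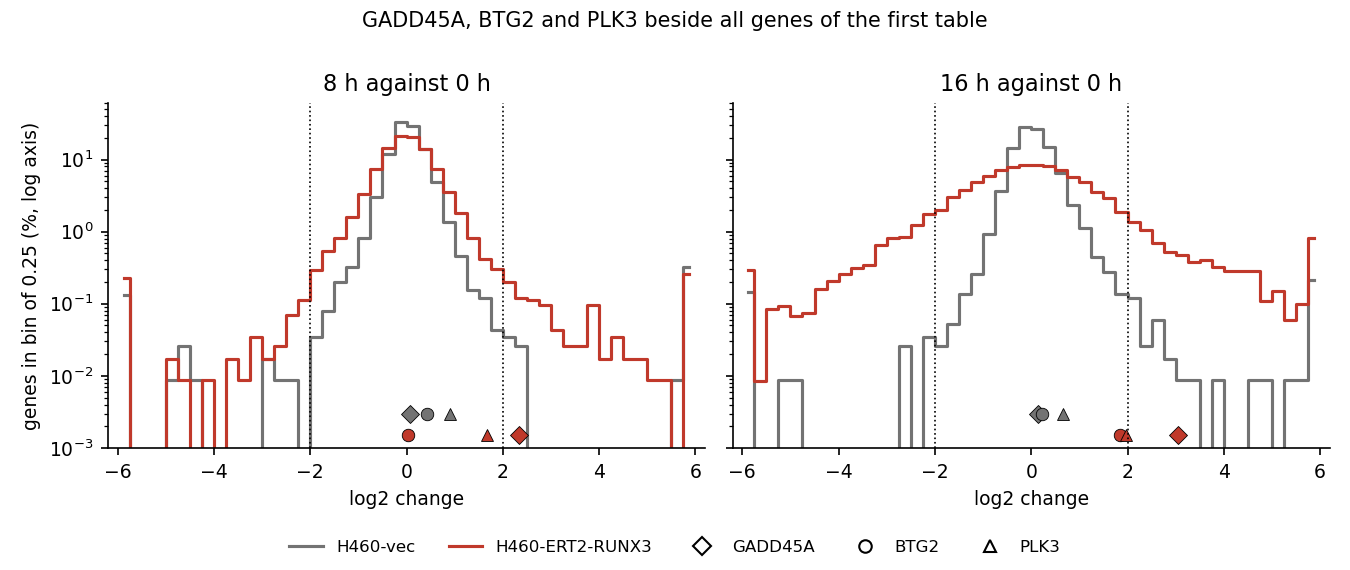
Distribution of log2 changes against 0 h over the genes that met the FPKM minimum, in bins of 0.25 as a percentage of genes (log axis), in H460-vec (grey) and H460-ERT2-RUNX3 (red), with the end bins holding all values beyond. Symbols mark GADD45A, BTG2 and PLK3 on the horizontal axis, their height has no meaning, and dotted lines are at the threshold of 2. The red distribution is much wider at 16 h, where GADD45A at 3.04 lies past the threshold and PLK3 at 1.96 and BTG2 at 1.84 lie just short of it.

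Between the lines at the same time, H460-ERT2-RUNX3 exceeded H460-vec in PLK3 by 0.20 at 0 h, 0.96 at 8 h and 1.48 at 16 h. For BTG2 the differences were 0.27, -0.13 and 1.88, and for GADD45A they were 0.72, 2.96 and 3.61. GADD45A was the only one of the 3 genes past the threshold, at 8 and 16 h, where 1.66% of 11593 and 7.62% of 12045 genes were past it upward, and 0 of the 3 were at 0 h, where 0.916% were. The shares of genes past it downward were 0.622%, 1.08% and 9.33% at 0, 8 and 16 h. In H460-vec, 0 of the 3 genes were past the threshold in any of its comparisons. There, 0.391% of genes were past it upward and 0.209% downward at 8 h, 0.5% and 0.224% at 16 h, and 0.251% and 0.277% between 8 and 16 h.

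The shares above depend on how the libraries are scaled. After rescaling every library of a table to an equal FPKM sum, the median of all genes moved by -0.49 in H460-ERT2-RUNX3 at 16 h against 0 h, by -0.31 at 16 h against 8 h, by -0.18 at 8 h against 0 h, and by -0.28 against H460-vec at 16 h. In H460-vec it moved by -0.11 and -0.12 in the comparisons at 16 h with 0 and 8 h. The shares past the threshold upward and downward at 16 h against 0 h then became 4.72% and 12.3%, from 7.27% and 7.2%. At 16 h against 8 h they became 3.16% and 5.63% from 4.3% and 3.53%, at 8 h against 0 h 0.968% and 0.788% from 1.08% and 0.545%, and against H460-vec at 16 h 5.71% and 12.1% from 7.62% and 9.33%. GADD45A stayed past the threshold, at 2.15 at 8 h and 2.54 at 16 h. BTG2 and PLK3 were at 1.35 and 1.47 at 16 h. With a threshold of 1 on the unscaled values, 2 of the 3 genes (GADD45A and PLK3) were past it upward at 8 h in H460-ERT2-RUNX3 and all 3 were at 16 h, where 4.41% and 20.6% of all genes were. Between 8 and 16 h, 1 of the 3 (BTG2) was, as were 14.3% of all genes, and against H460-vec at 16 h all 3 were, as were 21.1%.

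In K94/171R, most of the 10 genes were lower at 8 h than at 0 h, and all 10 were higher at 16 h than at 8 h. At 8 h against 0 h, 8 were lower and 2, GADD45G and BTG3, were higher, with a median change of -0.33, while 49.2% of all genes were lower and their median was 0.01. At 16 h against 8 h the median of the 10 was 0.53, while 48% of all genes were higher and their median was -0.02. Both comparisons use the same 8 h library, so they are not independent of each other. At 16 h against 0 h, 6 were higher and 4 lower, or 8 and 2 after rescaling to equal FPKM sums, when TOB1 and TOB2 change sign. The threshold of 2 was passed by 0 of the 10 in any of these comparisons. The background was 0.142% of 11252 genes upward and 0.471% downward at 8 h against 0 h, 0.212% and 0.3% of 11325 at 16 h against 0 h, and 0.372% and 0.115% of 11280 at 16 h against 8 h. A change of 1 was passed upward by GADD45G (1 of the 10) at 8 h, where 1.27% of all genes passed it, and downward by GADD45B (1 of the 10), where 2.49% did. At 16 h against 0 h, 2 of the 10, GADD45G and BTG2, passed it upward beside 1.47% of all genes, and 0 downward beside 1.27%. At 16 h against 8 h, 1 of the 10, BTG2, passed it upward beside 2.66%.

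**Figure D3:**
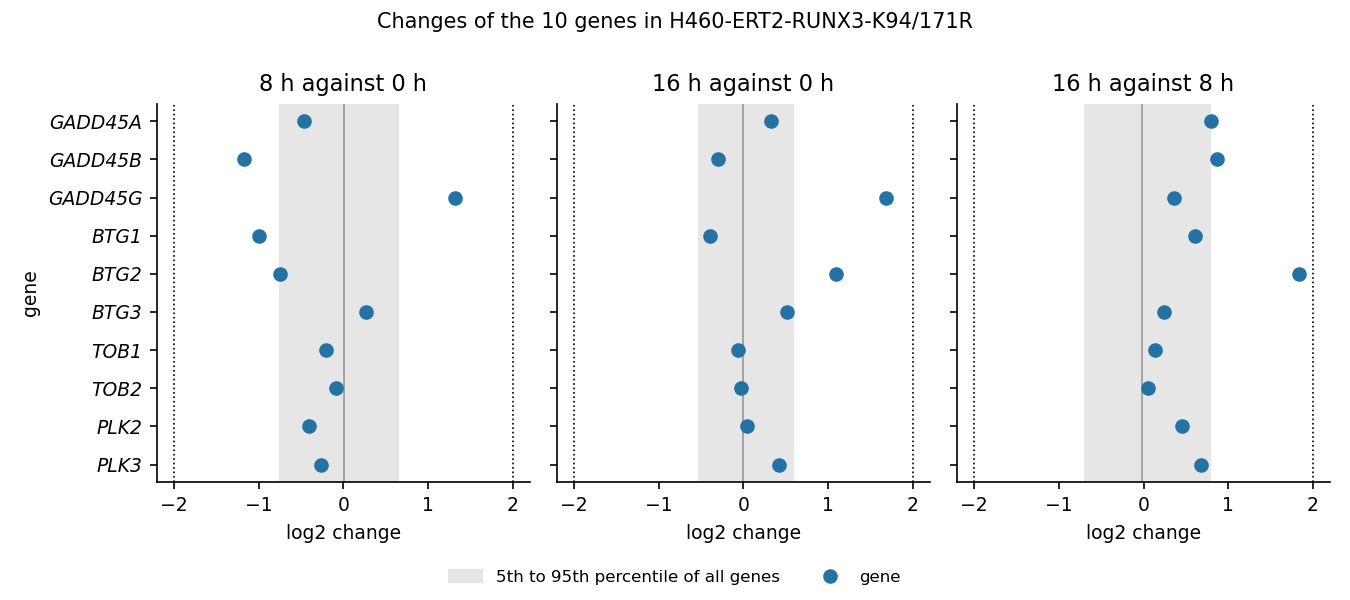
Log2 changes of the 10 genes in K94/171R (points, 1 library per time, no error bars) beside the range from the 5th to the 95th percentile of every gene that met the FPKM minimum (grey band), with the median of all genes as a grey line and the threshold of 2 dotted. At 16 h against 8 h all 10 points are to the right of 0, from 0.05 for TOB2 to 1.84 for BTG2, and most of them lie inside the band.

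The GADD45 genes differed among themselves in K94/171R. GADD45A had FPKM of 22.9, 16.4 and 28.7 at 0, 8 and 16 h, changes of -0.47 and 0.33 against 0 h. GADD45B (chr19:2476120-2478257, plus strand), an NF-kappaB and TGF-beta target in many cells, had 16.0, 7.07 and 13.0. Its change of -1.17 at 8 h was the lowest of the 10 genes, and 1.72% of all genes were as low. At 16 h it was within 0.30 of its starting level. GADD45G (chr9:92219927-92221470, plus strand) had 0.458, 1.22 and 1.58, the only one of the 3 with its lowest value at 0 h. Its changes of 1.32 and 1.68 were equalled by 0.435% and 0.389% of genes. At 0 h it was below the FPKM minimum and entered only through its higher libraries, and with a pseudocount of 1 in place of 0.05 its changes were 0.61 and 0.82.

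Among the BTG genes, BTG1 (chr12:92534054-92539622, minus strand), whose transcript is typically high in quiescent cells, had FPKM of 37.8, 18.9 and 28.9. Its decrease at 8 h, just short of 1 on the log2 scale, was the next largest after that of GADD45B, and 2.51% of genes were as low. BTG1 overlaps the noncoding RNA genes BTG1-DT, on the other strand, and LINC01619, on the same strand. BTG2 had 16.0, 9.49 and 34.1, low at 8 h and highest at 16 h. Its change of 1.84 from 8 to 16 h was the largest of the 10 genes in that comparison and was equalled by 0.496% of all genes, and at 16 h against 0 h it was 1.09, equalled by 1.22%. BTG3 (chr21:18965971-18985263, minus strand), which overlaps BTG3-AS1 on the other strand, had 28.5, 34.5 and 40.7, with changes of 0.27 and 0.51. It was, with GADD45G, one of the pair of genes that were highest at 16 h and lowest at 0 h.

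The TOB genes moved least. TOB1 (chr17:48939584-48945339, minus strand, overlapping TOB1-AS1 on the other strand) had FPKM of 171, 148 and 162, the highest of the 10 genes at each time. Its changes were -0.21 at 8 h and -0.07 at 16 h, the latter 0.02 after rescaling to equal FPKM sums. TOB2 (chr22:41829498-41842805, minus strand) had 16.4, 15.5 and 16.1, changes of -0.09 and -0.03, the latter 0.06 with that rescaling. These 2 genes stayed within 0.21 of log2 of their level at 0 h.

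Of the kinases, PLK2 (chr5:57749809-57755966, minus strand), an early serum-response gene of the family, had FPKM of 68.6, 51.7 and 70.6, changes of -0.41 and 0.04. PLK3 had 5.82, 4.85 and 7.79, changes of -0.26 and 0.42. Both were lowest at 8 h. BTG1, BTG3 and TOB2 also have processed pseudogenes in the annotation (BTG1P1, BTG3P1 and TOB2P1), and how reads matching both copies were counted is not given in the sources used here.

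**Figure D4:**
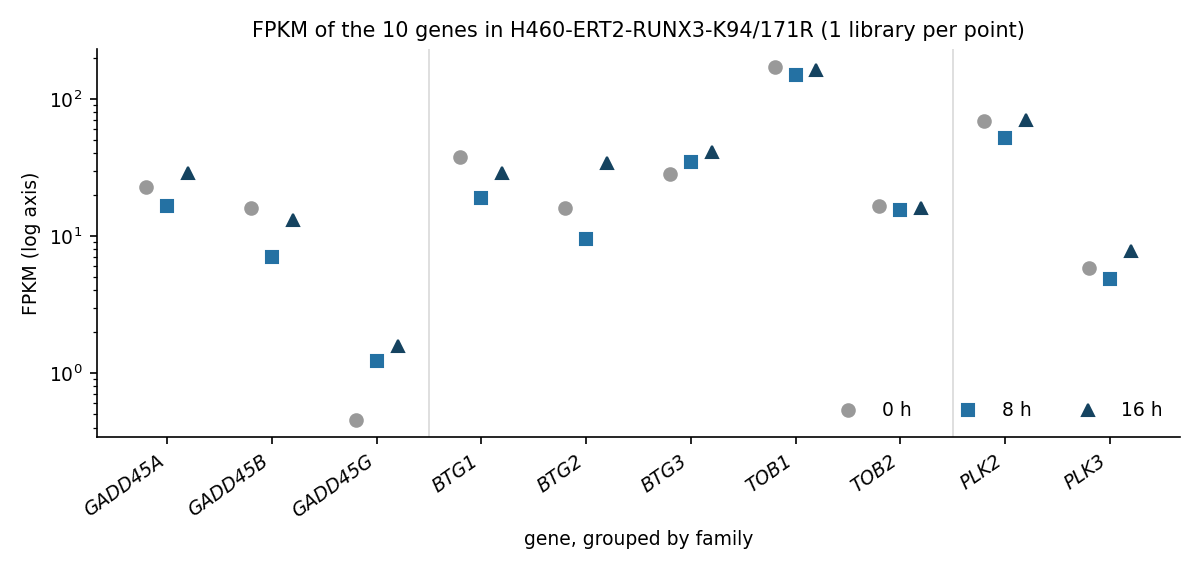
FPKM (log axis) of the 10 genes in K94/171R at 0 h (grey circles), 8 h (blue squares) and 16 h (dark triangles), 1 library per point, grouped into the GADD45, BTG/TOB and PLK families. TOB1 is highest at 148 to 171 and GADD45G lowest at 0.458 to 1.58, and BTG2 shows the largest distance between 8 and 16 h.

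FPKM is scaled by transcript length, so levels of different genes in a K94/171R library can be ordered. At 0 h the order from the highest was TOB1, PLK2, BTG1, BTG3, GADD45A, TOB2, GADD45B, BTG2, PLK3 and GADD45G. TOB1 had 2.43% of all genes above it and GADD45G 59.6%. TOB2, GADD45B and BTG2 lay together between 16.0 and 16.4. The largest move in order was that of BTG2, which held rank 8 at first, then 7, and rank 4 in the last library. There is no spread between replicates against which neighbours in this order could be told apart.

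The lines showed the largest contrast in GADD45A. Against 0 h it was at 2.33 and 3.04 in H460-ERT2-RUNX3, at 0.08 and 0.15 in H460-vec and at -0.47 and 0.33 in K94/171R. For PLK3 the pairs of values were 1.67 and 1.96, 0.91 and 0.67, and -0.26 and 0.42. For BTG2 the pairs against 0 h were 0.02 and 1.84, 0.43 and 0.23, and -0.75 and 1.09. From 8 to 16 h BTG2 was at 1.82 in H460-ERT2-RUNX3, at -0.19 in H460-vec and at 1.84 in K94/171R. It was the only 1 of the 3 genes with a value above 1 in both lines with a fusion. In K94/171R this value starts from an 8 h level below that at 0 h. As large a value was reached by 5.16% of genes in H460-ERT2-RUNX3 and by 0.496% in K94/171R. These are each table's own values, and the differences between tables were not tested.

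Partners and regulators were counted on lists written with earlier results of these data known, past a change of 1. Only list genes that met the FPKM minimum were counted. In K94/171R at 16 h against 0 h, 0 of 16 GADD45 partners and 0 of 17 deadenylase subunits and poly(A)-binding proteins were past 1 in either direction. So were 0 of 2 other polo-like kinases, from 3 found, and 0 of 23 transcription factors. The medians, in this order, were 0.11, -0.04, 0.24 and -0.15. Of all genes, 1.47% were past 1 upward and 1.27% downward. At 8 h, 2 of the 16 GADD45 partners were lower, beside 2.49% of all genes. They were MAP2K6, a p38 kinase kinase, which went from FPKM 25.4 to 8.85, and CDKN1A, the CDK inhibitor p21, which went from 146 to 68.5. CDKN1A then reached 247 at 16 h, a change of 1.85 from 8 h. It was the only 1 of the 16 GADD45 partners past 1 between these times, beside 2.66% of all genes upward. The median of the 16 was -0.02. Among the transcription factors, 1 of 23 was lower by more than 1 at 8 h, beside 2.49% of all genes, and the median of the 23 was -0.11. It was FOXO3, at FPKM 1.94, 0.862 and 1.94. FOXO3 and FOXO4 were the 2 of 23 that were higher at 16 h than at 8 h by more than 1, beside 2.66% of all genes, and both were below the FPKM minimum at 8 h (0.862 and 0.762) and entered through their 16 h library. MAP2K6, CDKN1A, FOXO3 and FOXO4 are named because the counts were small, after their values had been seen.

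In the other table, 4 of the 26 transcription factors were found, of which 3 met the FPKM minimum, and 0 of the genes of the other 3 lists were found. ATF3, a stress-induced factor of the CREB/ATF family, was at FPKM 2.95, 46.2 and 235 in H460-ERT2-RUNX3 and at 1.52, 1.69 and 4.13 in H460-vec. It was the only one of the 3 past a change of 1 in H460-ERT2-RUNX3, upward, as were 4.41% of all genes at 8 h, 20.6% at 16 h and 14.3% between these times. ATF3 was also past 1 upward in H460-vec, at 1.41 at 16 h against 0 h and at 1.26 at 16 h against 8 h. Of all genes, 2.48% and 1.54% were past it in these comparisons. POU2F1 and NFYC stayed within 0.29 of log2 of their level at 0 h in H460-ERT2-RUNX3. In K94/171R, ATF3 was at 2.41, 1.85 and 1.37.

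The genes most like each of the 3 in pattern were found among 564 chromosome 1 genes with a symbol by Pearson's r of log2 FPKM over the 6 libraries, as a description without a test. The points share their libraries, and the H460-ERT2-RUNX3 library at 16 h weighs heavily in each r. For GADD45A they were TIPRL, DESI2 and LMO4, with r of 0.989, 0.984 and 0.982. Pearson's r does not reflect the size of a change. TIPRL had FPKM of 49.2, 73.8 and 93.2 in H460-ERT2-RUNX3 and DESI2 had 32.9, 46.3 and 62.0, smaller rises than that of GADD45A. LMO4 had FPKM of 2.91, 8.23 and 13.0 in H460-ERT2-RUNX3 and of 2.74 to 3.12 in H460-vec. For BTG2 they were OTUD3, ZBTB40 and PHF13, with r of 0.995, 0.989 and 0.989. PHF13 had 3.71, 3.86 and 13.9 in H460-ERT2-RUNX3 and 3.47 to 4.09 in H460-vec, the same late course. For PLK3 they were PQLC2, NSUN4 and DHDDS, with r of 0.992, 0.990 and 0.979. PQLC2 had 4.92, 12.5 and 15.0 in H460-ERT2-RUNX3 and 4.28, 6.29 and 5.86 in H460-vec, higher at 8 h in both lines. Between the genes themselves, r was 0.903 for GADD45A and PLK3, 0.740 for BTG2 and GADD45A and 0.728 for BTG2 and PLK3.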

How the data were processed

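RNA-seq libraries of 3 H460 lines at 0, 8 and 16 h were analysed. The study used the TruSeq Stranded mRNA kit and a NextSeq500, and trimmed reads with Cutadapt. Per the submitters' processing notes and the paper, reads were mapped to hg19 with STAR 2.5.0 and FPKM were made with Cuffdiff 2.2.1. The authors deposited FPKM per gene in 2 tables, which were analysed separately. The first table gives locus identifiers, and symbols and loci came from the study's supplementary sheet, of which only a shortened copy was used here. Read numbers are not given. A relative scale of the libraries was read from the steps of low FPKM. It stands for depth only if FPKM were divided by total reads. It ranged from 0.964 to 1.172 against H460-vec at 0 h, and was 1.001 and 0.992 in K94/171R against its 0 h. It rests on 80 to 389 genes per library, and precision at low FPKM is limited. One of the study's sheets heads the last K94/171R column with another time than the 16 h of the sample label, and the label was used.

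Changes were computed with Python 3.11.15, pandas 2.3.3 and numpy 2.4.6 with a pseudocount of 0.05, a minimum FPKM of 1 in at least 1 of the libraries compared and a threshold of 2. The calculation was run on simulated data with planted changes well past the threshold and counting noise only. That run checked the code and says nothing about changes near the threshold or variation between libraries. No test was run, since each group is 1 library. Alternatives were pseudocounts of 0.5 and 1, rescaling to equal FPKM sums or by the median of ratios, a threshold of 1, and no filter. The rule for named genes took all 10 genes, RUNX3, the list genes with the largest changes at 16 h against 0 h past 1 (at most 2 each way), and the 3 genes most similar to each gene of the first table. MAP2K6, CDKN1A, FOXO3, FOXO4, POU2F1 and NFYC fall outside it and were named after their values had been seen. The members and lists were chosen with earlier results of these data known. Gene positions are from GENCODE v44lift37 (GRCh37), promoters from RefSeq. A planned comparison of protein sequences was not run.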

Additional observations from a re-analysis of the deposited data

Results flagged for a closer look

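Values of opposite sign in different lines were found at 8 h against 0 h, and none of these differences was tested, since each value rests on 2 libraries and the lines lie in separately made tables. GADD45A had a log2 change of 2.33 in H460-ERT2-RUNX3 and of -0.47 in K94/171R. PLK3 had 1.67 in H460-ERT2-RUNX3 and 0.91 in H460-vec but -0.26 in K94/171R. BTG2 had 0.43 in H460-vec and -0.75 in K94/171R.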

How the results depend on the processing

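Of 57 single-gene values per setting, all kept to within 1.5-fold of the reported change with a pseudocount of 0.5 and with both rescalings, and all but 2 did with a pseudocount of 1, the exceptions being GADD45G at 8 h and 16 h in K94/171R (0.61 and 0.82). For the rescalings, staying within 1.5-fold was fixed in advance, because they move all genes of a comparison by about the same amount. The largest such move, a median of -0.49 of log2, was smaller than 1.5-fold. That margin is also wider than the smaller reported changes, so values counted as kept could differ in sign. The sign differed from that reported in 5 values, all with equal FPKM sums and all with a reported change of at most 0.29 in size. With a threshold of 1 in place of 2, the number of genes past it upward became 2 at 8 h against 0 h, 3 at 16 h against 0 h and 1 at 16 h against 8 h in H460-ERT2-RUNX3, and 3 for H460-ERT2-RUNX3 against H460-vec at 16 h. In K94/171R it became 1 upward and 1 downward at 8 h against 0 h, 2 upward at 16 h against 0 h and 1 upward at 16 h against 8 h. The counts past 2 did not change with the pseudocounts, the rescalings or no filter on FPKM. Removing the filter could not change them, because all these genes met the FPKM minimum in every comparison. The median of ratios moved the median of all genes by at most 0.03 of log2, so it left little room for a change either. The counts past 1 were not rerun under those settings, but GADD45G was below 1 at 8 and 16 h with a pseudocount of 1, as given above, and at 0.84 at 8 h with 0.5, and BTG1 at 8 h in K94/171R was at -1.01 with the median of ratios. No paired analysis was possible because each line and time has 1 library and no test was run, and for the same reason no library could be left out. Low FPKM, as for GADD45G, rests on few reads.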
